A study of Mus musculus with 2 samples.

Results

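Slurp1 and Sema3e fibroblasts of mouse knee synovium were cells with fibroblast collagen transcripts, little Prg4 and at least 2 unique molecular identifiers (UMIs, each a counted RNA molecule) of Slurp1 and Sema3e together. The series held 1 single-cell library from knees labelled MMS and D14 (day 14) and 1 from control knees, each made from the synovium of 20 pooled knees of wild-type mice. The labels do not spell out MMS, do not say how many animals the knees came from, and give no age, sex or strain. Of 14096 cell barcodes in the series, 777 met the rule, 227 of 5286 in the MMS library and 550 of 8810 in the control library. The members were selected on measured UMIs of 9 genes and on quality. Barcodes below 1000 UMIs or 500 detected genes, or above 10% mitochondrial UMIs, were dropped. Of the rest, those with 0.5% or more of their UMIs from Col1a1, Col1a2 and Col3a1, Prg4 below 1%, and no more than 1 UMI of Ptprc, Pecam1 and Cdh5 went on to the Slurp1 and Sema3e threshold. Cells that met every part except that threshold are called gated fibroblasts here, and there were 1126 in the MMS library and 2854 in the control library. With 1 library per condition no difference between MMS and control had a replicate check, no test was made, and every interval below is a 95% interval that covers counting error only.

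Synovium is the connective tissue sheet that encloses a joint. Its lining fibroblasts face the joint space and secrete the lubricant encoded by Prg4, while sublining and adventitial fibroblasts lie deeper, around vessels, nerves and fat. Slurp1 encodes a small secreted protein of the Ly6 and uPAR family, known from skin as a ligand of nicotinic acetylcholine receptors. Sema3e encodes a secreted class 3 semaphorin that binds the receptor Plexin-D1 and repels growing vessels and axons. Uchl1 encodes a ubiquitin hydrolase abundant in neurons, Ccn3 a matricellular protein of the CCN family, and Anxa8 a calcium-dependent phospholipid-binding annexin.

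The 5 genes lie on 3 mouse chromosomes (GENCODE annotation on GRCm38, the mm10 build). Slurp1 is at chr15:74724318-74728034 on the minus strand and Ccn3 at chr15:54745702-54754039 on the plus strand. Sema3e is at chr5:14025276-14256689, Uchl1 at chr5:66676091-66687234 and Anxa8 at chr14:34085981-34100571, all on the plus strand. All are protein-coding genes, counted over the gene as a whole from reads near transcript 3' ends.

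Total UMIs were close, 85597195 in the MMS library and 84900876 in the control library, but the cells differed in depth. Members had a median of 32426 UMIs and 5754 genes in MMS, against 16164 UMIs and 4139 genes in control. Other gated fibroblasts had 21729 UMIs in MMS and 12773 in control, so members were deeper than other gated fibroblasts in both libraries. Collagen transcripts made up a median 5.67% of member UMIs in MMS and 2.29% in control. The libraries shared 6 barcodes, of which 4 passed the quality limits and 0 were members. A doublet caller marked 2 MMS and 4 control members. The labels name the cell type as goblet cells, an epithelial type. Of 9 epithelial markers, Epcam, Krt5 and Krt14 among them, 7 were at 0 UMIs in MMS members and 5 in control members, and the whole list summed to 4.17 CPM (UMIs per 1000000 UMIs of those cells) in MMS members and 5.97 in control members.

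Slurp1 and Sema3e themselves chose the cells, so their levels are a description. Most members carried Sema3e without Slurp1, and this was more marked in MMS. Sema3e without Slurp1 was found in 189 of 227 MMS members (83.3%) and 345 of 550 control members (62.7%). Both genes were found in 33 MMS members (14.5%) and 178 control members (32.4%), and Slurp1 without Sema3e in 5 MMS members (2.20%) and 27 control members (4.91%). A cell with any Slurp1 was thus 16.7% of MMS members and 37.3% of control members. Slurp1 was at 85.3 CPM in MMS members and 298 CPM in control members, with 634 and 2940 UMIs in all. Sema3e was at 145 CPM in MMS members and 285 CPM in control members.

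The Slurp1 UMIs were concentrated in few cells and the Sema3e UMIs were not. In MMS, the 23 members with most Slurp1 held 94.95% of its UMIs, and the highest cell held 168. In control, the top 55 members held 83.5%, and the highest cell held 254. The same numbers of cells held 30.6% of Sema3e UMIs in MMS and 38.7% in control, with at most 41 UMIs in an MMS cell and 45 in a control cell. A cell type that should lack the genes gave the background: of leukocytes (Ptprc-positive cells with almost no collagen, median 14908 UMIs in MMS and 13788 in control), 0.135% in MMS and 0.191% in control had a Slurp1 UMI. Among the same leukocytes 0.269% in MMS and 0.382% in control had a Sema3e UMI.

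**Figure D1:**
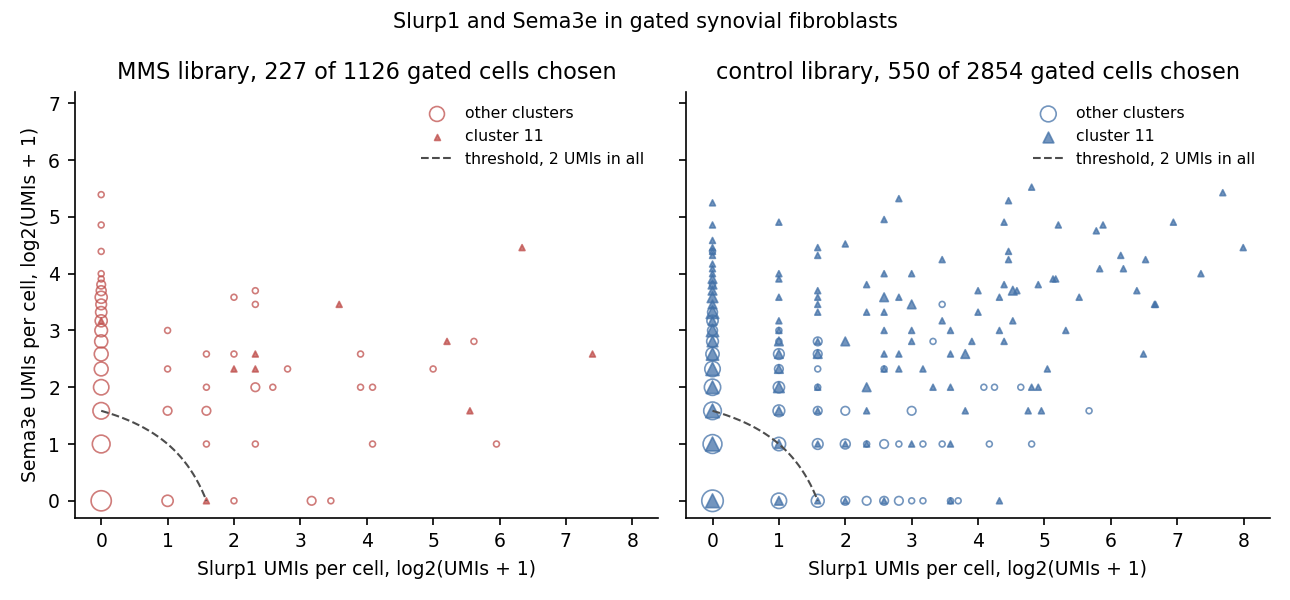
Sema3e UMIs (vertical axis) against Slurp1 UMIs (horizontal axis), both as log2 of UMIs plus 1, in gated fibroblasts of MMS (left) and control (right). Each point is a pair of counts, larger where more cells had it, triangles are cells of cluster 11 of the clustering without the pair and the dashed line is the threshold of 2 UMIs. High Slurp1 counts, up to 168 in MMS and 254 in control, belong to few cells, and most members lie on the Sema3e axis with no Slurp1.

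The threshold of 2 UMIs did not fall at a gap. Members with exactly 2 UMIs numbered 69 in MMS and 171 in control, and gated fibroblasts just outside, with 1 UMI, numbered 148 in MMS and 345 in control. Uchl1 was at 5.56 CPM in MMS and 34.9 CPM in control cells with 2 UMIs, and at 9.72 CPM in MMS and 22.2 CPM in control cells with 1 UMI. Anxa8 was at 319 CPM in MMS and 101 CPM in control cells with 2 UMIs, and at 302 CPM in MMS and 81.2 CPM in control cells with 1 UMI. The Prg4 limit was crossed by few cells: members with 0.8 to 1% Prg4 numbered 5 in each library, and 1 cell in each library had 1 to 1.2% Prg4 and met the rest of the rule. Among all cells at or above the Prg4 limit, 95 of 382 MMS cells (24.9%) and 22 of 100 control cells (22.0%) had 2 or more UMIs of the pair. Near the collagen limit, 3 MMS and 12 control members had 0.5 to 0.6% collagen, and 1 MMS and 7 control cells with 0.4 to 0.5% met the rest.

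Members were 20.2% of gated fibroblasts in MMS (17.9 to 22.6%) and 19.3% in control (17.8 to 20.8%), a difference of 0.889 points (-1.80 to 3.71). That share depends on depth, since a deeper cell reaches 2 UMIs more easily. When every gated fibroblast was thinned to 5000 UMIs, 58 of 1007 MMS cells (5.76%, 4.40 to 7.38%) and 253 of 2684 control cells (9.43%, 8.35 to 10.6%) reached the threshold. Shallower cells left out of the thinning numbered 119 in MMS and 170 in control. As a share of all cells that passed the quality limits, members were 5.86% in MMS and 7.77% in control, a difference of -1.91 points (-2.86 to -0.921).

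Cells with Slurp1 also had Sema3e more often than cells without it, although at equal depth the intervals overlapped in MMS. At 5000 UMIs per cell, Sema3e was seen in 6 of 22 MMS cells with Slurp1 (27.3%, 10.7 to 50.2%), against 13.0% of MMS cells without it. In control it was seen in 101 of 164 cells with Slurp1 (61.6%, 53.7 to 69.1%), against 15.6% of cells without it. Without thinning the shares with Slurp1 were 76.7% in MMS and 73.3% in control, close to each other, and those without it were 30.7% in MMS and 24.97% in control. Depth differed there, with medians of 36600 UMIs in MMS cells with Slurp1 and 23592 in MMS cells without it. In control these medians were 15855 and 13067 UMIs.

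The gated fibroblasts of both libraries were clustered without the 2 selecting genes, to see whether the members lay together by their other genes. They did so in part, and mostly in control. Cluster 11 of 19, led by Colec10, Pou2f2, Serpinb7, Ppp1r14c, Bmp6, Ackr2, Nog and Uchl1, held members in 10 of its 10 MMS cells and 204 of its 238 control cells. It held 4.41% of MMS members and 37.1% of control members, 27.5% of all, more than any other cluster. This cluster was 0.888% of gated fibroblasts in MMS (0.427 to 1.63%) and 8.34% in control (7.35 to 9.41%). It held 55.8% of member Slurp1 UMIs in MMS and 86.6% in control, but 6.02% of member Sema3e UMIs in MMS and 65.5% in control. Slurp1 was seen in 9 of the 10 MMS members of cluster 11 and in 117 of its 204 control members (57.4%), against 13.4% of MMS members and 25.4% of control members outside it.

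The members outside cluster 11 lay in different clusters in the 2 libraries. In MMS, 112 members (49.3%) lay in cluster 3, which had 315 MMS cells and 0 control cells. It was led by Col11a2, Thbs1, Col11a1, Klhl30 and Nebl, followed by the cartilage and tendon matrix genes Acan and Fmod. Another 63 MMS members (27.8%) and 9 control members lay in cluster 0, led by Cldn2, Barx2 and Mmp3, and 17 MMS and 2 control members in cluster 4, led by Mmp13 and Mmp11. Cluster 15, led by Gpr1, Dact2, Gap43 and Pi16, held 2 MMS members and 101 control members (18.4% of control members). A further 2 MMS and 93 control members lay in cluster 1, led by Serpina3m and Vtn, and 0 MMS and 70 control members in cluster 10, led by Aox3 and Stmn4. Cluster 8, led by cell cycle genes, held 11 MMS and 4 control members, and cluster 17, led by the macrophage genes Tlr7, Timd4 and Fcna, held 3 members of each library. Each condition is 1 library, so a cluster of 1 condition cannot be told apart from a cluster of 1 library.

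**Figure D2:**
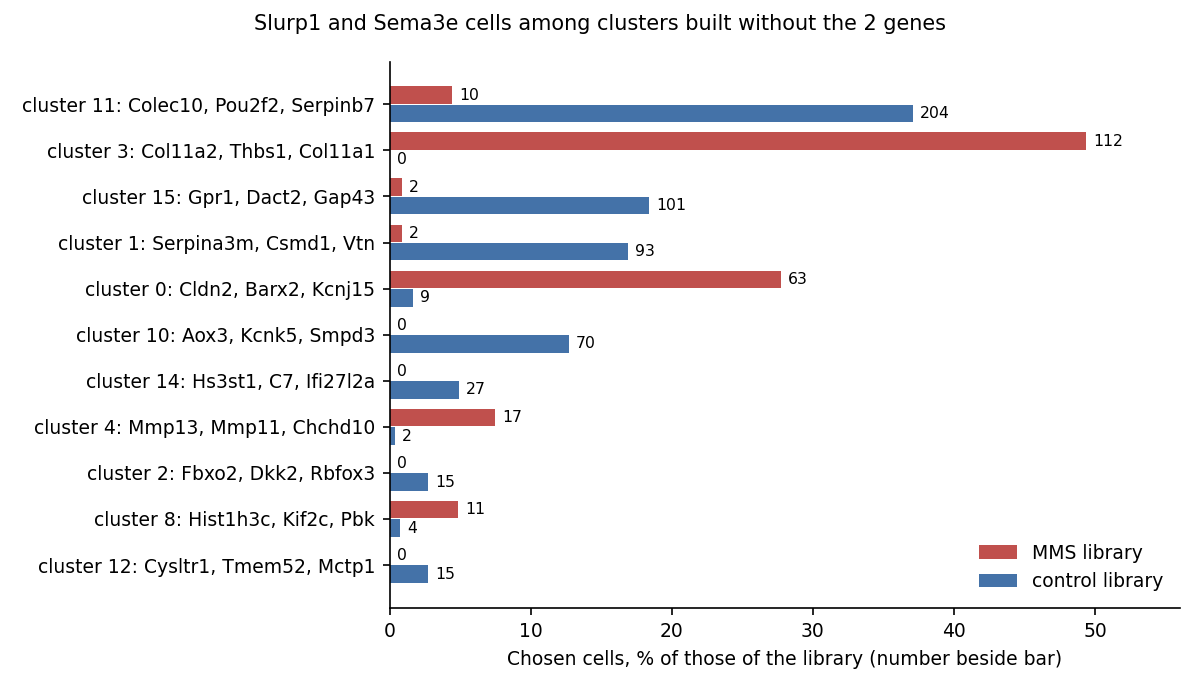
Share of the members of each library (percent, horizontal axis) in the 11 clusters of gated fibroblasts with most members (vertical axis, named by 3 leading genes), MMS above control, with the number of cells beside each bar. Cluster 3 holds 49.3% of MMS members and 0 control members, while cluster 11 holds 4.41% of MMS members and 37.1% of control members.

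Uchl1, Ccn3 and Anxa8 were not part of the rule but were given as marks of these cells, and all 3 were higher in members than in other gated fibroblasts of both libraries. Uchl1 was at 19.2 CPM in MMS members against 4.35 CPM in the other gated fibroblasts of MMS (MMS others), and at 93.1 CPM in control members against 9.87 CPM in those of control (control others). Ccn3 was at 118 CPM in MMS members and 53.6 CPM in MMS others, and at 415 CPM in control members and 99.1 CPM in control others. Anxa8 was at 540 CPM in MMS members and 193 CPM in MMS others, and at 387 CPM in control members and 39.9 CPM in control others. The log2 ratios of members over others were 2.15, 1.13 and 1.48 for Uchl1, Ccn3 and Anxa8 in MMS, and 3.24, 2.06 and 3.28 in control. Some of the others had at least 2 UMIs of Dpp4 and Pi16 together, genes of adventitial fibroblasts. In these cells Uchl1, Ccn3 and Anxa8 were at 14.2, 90.5 and 167 CPM in MMS and at 26.0, 159 and 92.5 CPM in control. For Uchl1 in MMS the intervals overlapped, 9.92 to 19.6 CPM in these cells and 16.2 to 22.7 CPM in members. The MMS value of Uchl1 came mostly from few cells. The 38 MMS members with any Slurp1 were at 74.5 CPM, and the 189 with Sema3e alone were at 5.70 CPM, near the 4.35 CPM of MMS others, while the 345 control members with Sema3e alone were at 28.1 CPM. Ccn3 and Anxa8 in members with Sema3e alone were at 115 and 439 CPM in MMS and at 318 and 125 CPM in control. Thinned to 5000 UMIs, Uchl1 was seen in 5.80% of members and 2.04% of others in MMS, and in 21.02% of members and 4.26% of others in control. Anxa8 was likewise seen in 77.2% of members and 31.5% of others in MMS, and in 48.1% of members and 13.5% of others in control.

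Uchl1, Ccn3 and Anxa8 were each at their highest in the cells with most UMIs of the pair. Over gated fibroblasts with 0, 1, 2 to 3, 4 to 9 and 10 or more UMIs, Uchl1 was at 2.89, 9.72, 5.52, 12.1 and 63.5 CPM in MMS and at 7.32, 22.2, 30.1, 49.8 and 248 CPM in control. Over the same bins Ccn3 was at 49.9, 67.3, 80.7, 141 and 157 CPM in MMS and at 86.3, 161, 214, 454 and 695 CPM in control. Anxa8 was at 163, 302, 334, 597 and 895 CPM in MMS and at 31.4, 81.2, 102, 244 and 1020 CPM in control. Only Uchl1 in MMS broke the order, between the cells with 1 and with 2 to 3 UMIs. Sbsn, which encodes the epidermal secreted protein suprabasin, followed the same order, at 60.6, 103, 150, 346 and 493 CPM in MMS and at 11.2, 25.8, 33.9, 93.5 and 439 CPM in control. The lining gene Prg4, which the rule limited, did not keep that order, at 1030, 1244, 904, 1520 and 1559 CPM in MMS and at 306, 524, 858, 925 and 647 CPM in control. The bins hold 751, 148, 108, 81 and 38 MMS cells and 1959, 345, 256, 177 and 117 control cells. Depth moved with the bins, from a median of 19908 UMIs per MMS cell and 12646 per control cell with 0 UMIs of the pair to 34922 per MMS cell and 19609 per control cell with 10 or more, and its part in the order was not tested.

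**Figure D3:**
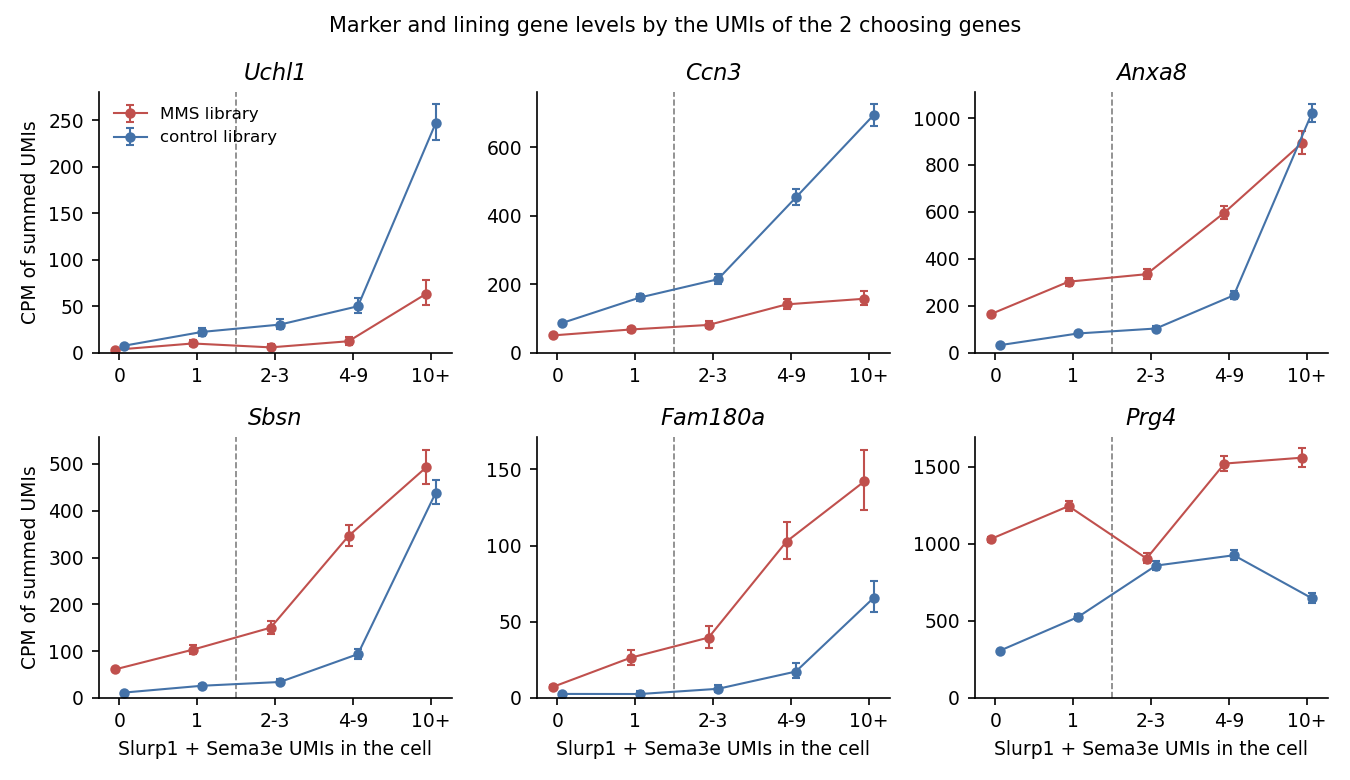
CPM (vertical axis, linear) of 6 genes, from UMIs summed over gated fibroblasts with 0, 1, 2 to 3, 4 to 9 and 10 or more UMIs of Slurp1 and Sema3e together (horizontal axis), with a line for MMS and a line for control, bars for 95% counting intervals and a dashed line at the selection threshold. Uchl1, Ccn3, Anxa8 and Sbsn are highest in the last bin of both libraries, where Anxa8 is at 895 CPM in MMS and 1020 CPM in control.

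Beyond the marker genes, the members were higher than other gated fibroblasts of both libraries in Ackr2, Bmp6, Pthlh, Foxd1, Sbsn and Fam180a, among others, and lower in Apoe, Lpl, Sfrp2 and Ccl11. Of 10474 genes that passed the filter on low values, 183 (1.75%) were at least 2-fold higher in members than in other gated fibroblasts in both libraries and 149 (1.42%) at least 2-fold lower. The filter used UMIs of members alone, so genes nearly absent from members of both libraries could not be counted as lower. Without cluster 8, led by cell cycle genes, which held 11 MMS and 4 control members, 128 genes were at least 2-fold higher, 120 of them among the 183. These counts and the genes below describe how the chosen cells differ and carry no test, because the rule chose the cells on expression.

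Ackr2, a receptor that takes up inflammatory chemokines without signalling, was at 12.2 CPM in MMS members and 0.556 CPM in MMS others (log2 ratio 4.46, 3.55 to 5.51), and at 49.6 CPM in control members and 3.54 CPM in control others (3.81, 3.50 to 4.12). Of its 91 UMIs in MMS members, 78 lay in the 38 members with any Slurp1, at 53.3 CPM, and the 189 MMS members with Sema3e alone were at 2.18 CPM. The 345 control members with Sema3e alone were at 17.3 CPM. Bmp6, a bone morphogenetic protein, was at 14.7 CPM in MMS members and 2.02 CPM in MMS others, and at 33.5 CPM in control members and 0.961 CPM in control others. Pthlh, which encodes parathyroid hormone-related protein, was at 33.1 CPM in MMS members and 5.36 CPM in MMS others, and at 32.0 CPM in control members and 5.50 CPM in control others. The transcription factor gene Foxd1 was at 28.4 CPM in MMS members and 6.37 CPM in MMS others, and at 26.6 CPM in control members and 1.16 CPM in control others. Sbsn was at 289 CPM in MMS members and 69.6 CPM in MMS others, and at 158 CPM in control members and 13.7 CPM in control others. Fam180a was at 82.6 CPM in MMS members and 11.2 CPM in MMS others, and at 25.1 CPM in control members and 2.55 CPM in control others. Summed over all members, Pthlh and Foxd1 thus stood at nearly the same level in MMS and control, but cluster 11, where both were highest, held 4.41% of MMS members and 37.1% of control members. Pthlh was at 195 CPM in the 10 MMS members of cluster 11 and 66.1 CPM in its control members, and at 25.8 CPM in MMS members and 9.85 CPM in control members outside it. Foxd1 was at 167 CPM in MMS and 54.2 CPM in control members of cluster 11, and at 22.1 CPM in MMS and 8.69 CPM in control members outside it. Over all members, Ackr2 and Bmp6 were lower, and Sbsn and Fam180a higher, in MMS.

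Several of these genes were as high or higher in the cells at or above the Prg4 limit, which the rule left out. Sbsn was at 289 CPM in MMS members and 301 CPM in MMS Prg4-high cells, within counting error of each other, and at 158 CPM in control members and 419 CPM in control Prg4-high cells. Foxd1, Ackr2 and Bmp6 were at 28.4, 12.2 and 14.7 CPM in MMS members and at 55.0, 20.2 and 19.3 CPM in MMS Prg4-high cells. In control they were at 26.6, 49.6 and 33.5 CPM in members and at 21.9, 22.8 and 29.0 CPM in Prg4-high cells, where only the intervals of Ackr2 did not overlap. Fam180a and Uchl1 were lower in the Prg4-high cells than in members, at 4.95 and 3.09 CPM in MMS and at 0.828 and 3.72 CPM in control.

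The other named genes on the high side were low in level or differed more between the libraries. Ano1, a calcium-activated chloride channel, was at 108 CPM in MMS members and 29.5 CPM in MMS others, and at 28.6 CPM in control members and 2.22 CPM in control others. Serpinb7, a serine protease inhibitor of the serpin family, was at 2.29 CPM in MMS members and 0.0506 CPM in MMS others, and at 27.3 CPM in control members and 1.52 CPM in control others. Ptpn22, a tyrosine phosphatase known from lymphocytes, Bpifc, a lipid-binding protein gene, and Abcb4, a phospholipid transporter, had log2 ratios of members over others of 2.92, 4.81 and 2.65 in MMS and of 5.22, 6.61 and 3.30 in control. Bpifc was at 5.65 CPM in MMS members and 3.24 CPM in control members. The histone genes Hist1h2ap and Hist1h2ae, which have near-identical copies that can share reads, had log2 ratios of 2.21 and 2.29 in MMS and 3.05 and 2.71 in control.

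On the low side, 4 of the 10 named genes are given by level and the others by their range. Apoe, a lipid carrier, was at 126 CPM in MMS members and 966 CPM in MMS others (log2 ratio -2.94, -3.03 to -2.84), and at 146 CPM in control members and 839 CPM in control others (-2.52, -2.60 to -2.44). Lpl, which encodes lipoprotein lipase, was at 7.94 CPM in MMS members and 113 CPM in MMS others, and at 61.4 CPM in control members and 319 CPM in control others. Sfrp2, a secreted modulator of Wnt signalling, was at 37.4 CPM in MMS members and 178 CPM in MMS others, and at 12.45 CPM in control members and 192 CPM in control others. Ccl11, the eosinophil chemokine eotaxin, was at 1.08 CPM in MMS members and 26.4 CPM in MMS others, and at 20.7 CPM in control members and 166 CPM in control others. Ibsp, Cntfr, Fst, Smoc2, Iigp1 and Eln had log2 ratios between -3.82 and -2.20 in MMS and between -4.43 and -2.14 in control. They encode bone sialoprotein, a receptor subunit for ciliary neurotrophic factor, the activin antagonist follistatin, a matricellular protein, an interferon-inducible GTPase and elastin.

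**Figure D4:**
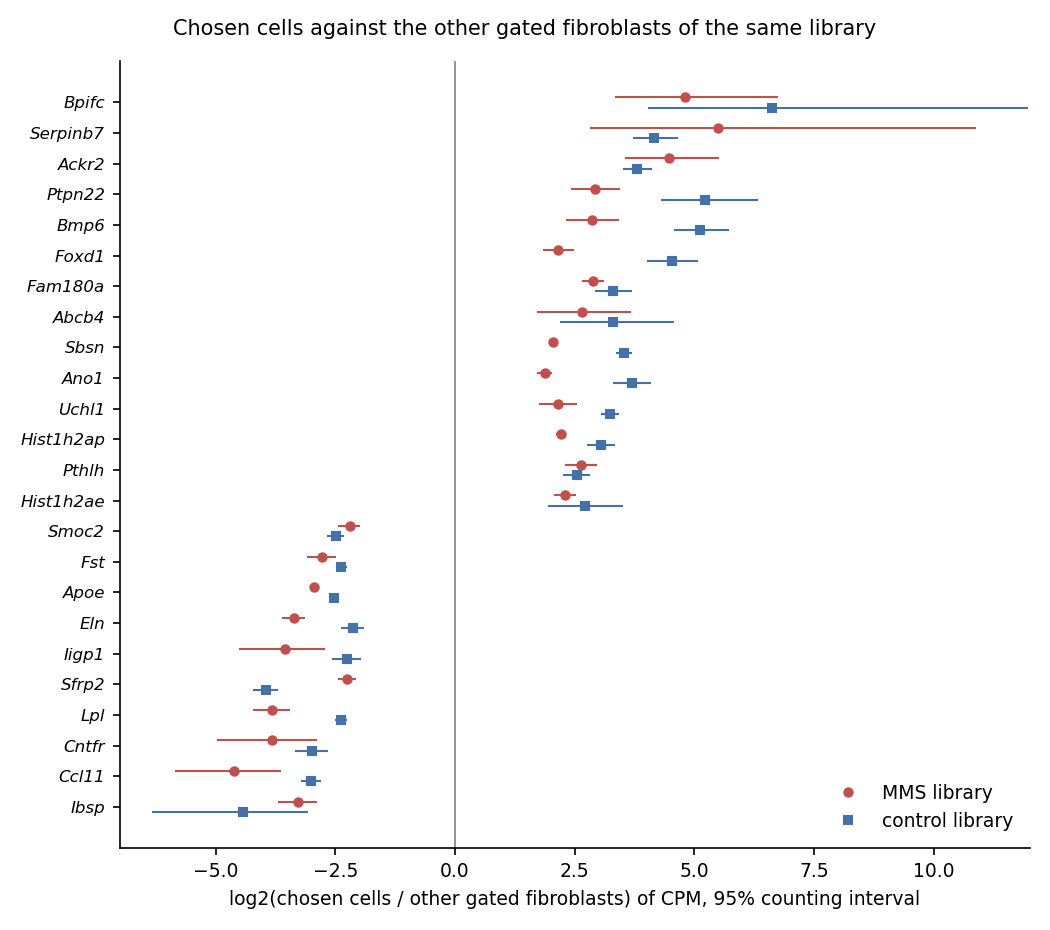
Log2 ratio of CPM in members over other gated fibroblasts of the same library (horizontal axis) for the 14 genes named as higher and the 10 named as lower (vertical axis), MMS as circles and control as squares, with bars for 95% counting intervals. Ackr2 lies at 4.46 in MMS and 3.81 in control, and Apoe at -2.94 in MMS and -2.52 in control.

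The stretches of 200 bases before the transcription start are shown for 2 marker genes, Sema3e and Anxa8, and for 3 high genes that hold the AP-1 motif TGANTCA, read from RefSeq on GRCm38.p6, each 5' to 3' on the strand of its gene. Capitals mark motif matches, searched on both strands.
Sema3e: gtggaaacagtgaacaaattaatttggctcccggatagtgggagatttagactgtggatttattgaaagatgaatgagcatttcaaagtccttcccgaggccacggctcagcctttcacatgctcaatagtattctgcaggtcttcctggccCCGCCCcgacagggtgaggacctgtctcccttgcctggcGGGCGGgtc
Anxa8: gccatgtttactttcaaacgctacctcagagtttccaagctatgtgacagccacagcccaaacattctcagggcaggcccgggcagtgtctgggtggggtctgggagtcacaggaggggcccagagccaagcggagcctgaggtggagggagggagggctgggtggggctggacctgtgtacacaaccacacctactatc
Serpinb7: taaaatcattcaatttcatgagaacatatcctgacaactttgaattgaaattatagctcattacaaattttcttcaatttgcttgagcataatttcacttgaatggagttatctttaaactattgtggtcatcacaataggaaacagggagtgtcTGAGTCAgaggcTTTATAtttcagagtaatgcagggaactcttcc
Fam180a: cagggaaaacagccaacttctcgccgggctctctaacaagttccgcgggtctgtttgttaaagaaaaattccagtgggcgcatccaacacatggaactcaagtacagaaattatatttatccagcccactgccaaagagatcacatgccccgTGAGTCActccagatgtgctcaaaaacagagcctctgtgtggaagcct
Sbsn: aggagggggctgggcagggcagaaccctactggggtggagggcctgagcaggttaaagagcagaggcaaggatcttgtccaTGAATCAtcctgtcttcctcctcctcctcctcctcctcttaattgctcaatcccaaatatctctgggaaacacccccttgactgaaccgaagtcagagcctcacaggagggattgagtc
They lie at chr5:14025076-14025275 (Sema3e, plus strand), chr14:34085779-34085978 (Anxa8, plus), chr1:107422489-107422688 (Serpinb7, plus), chr6:35326142-35326341 (Fam180a, minus) and chr7:30751271-30751470 (Sbsn, plus). The motifs searched were TGANTCA, the TATA box TATAAA, the CCAAT box CCAAT, the GC box GGGCGG and the E box CACGTG, none of which contains another. A promoter was found for 14 of the 18 genes looked for, the 5 markers and the 14 genes named as higher, which share Uchl1. TGANTCA was in 4 of the 14, those of Serpinb7, Fam180a, Sbsn and Bpifc, and in 5.48% of all 32851 promoters of the same length. GGGCGG was in 6 of the 14, 2 matches of it in Sema3e, and in 31.0% of all promoters. CCAAT was in 2 and TATAAA and CACGTG in 1 each of the 14, and in 29.3%, 9.96% and 5.26% of all promoters. The Anxa8 and Uchl1 promoters held no match to these letters. The genes that encode AP-1 subunits were measured too: Fos was at 1001 CPM in MMS members and 3131 CPM in control members, and Jun at 476 CPM in MMS members and 1798 CPM in control members. The list of immediate early genes summed to 7172 CPM in MMS members and 10091 CPM in MMS others. In control it summed to 18413 CPM in members and 26436 CPM in others. Whether AP-1 acts on these genes was not tested.

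MMS members differed from control members by matrix genes such as Thbs1, Acan, Col11a1 and Tnc, which were higher in MMS. Myoc, C7, Cxcl13 and Abca8a were lower in MMS members. Of 10805 genes that passed the filter on low values, 868 (8.03%) were at least 2-fold higher in MMS members and 698 (6.46%) at least 2-fold lower. The median log2 ratio over these genes was 0.06. Cluster makeup moved with this comparison, as 49.3% of MMS members and 0 control members lay in cluster 3, and depth did too, and their part in the differences was not tested.

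Among the 12 genes named as higher, the thrombospondin gene Thbs1 was at 1272 CPM in MMS members and 1.82 CPM in control members (log2 ratio 9.45, 8.79 to 10.20). Acan, the proteoglycan core of cartilage, was at 787 CPM in MMS members and 2.63 CPM in control members (8.22, 7.67 to 8.84). The fibrillar collagen genes of cartilage Col11a1 and Col11a2 were at 514 and 49.3 CPM in MMS members and at 0.709 and 0.304 CPM in control members. Tnc and Tnn, both tenascins, were at 657 and 672 CPM in MMS members and at 12.3 and 6.78 CPM in control members. Thbs4, a thrombospondin of tendon, was at 1453 CPM in MMS members and 30.1 CPM in control members, and Spp1, which encodes osteopontin, at 3756 CPM in MMS members and 8.40 CPM in control members. The collagenase gene Mmp13 had 1428 UMIs in MMS members and 0 in control members, at least 633-fold higher in MMS when 0 is set to a floor of 3 counts over the group. Fbn2, a fibrillin, and Myl1, a muscle myosin light chain, had 470 and 173 UMIs in MMS members and 1 each in control members, so their log2 ratios of 9.29 (6.80 to 14.59) and 7.85 (5.35 to 13.16) are loose.

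These genes were not particular to the members. Other gated fibroblasts of MMS carried them too, Thbs1 at 339 CPM, Acan at 405 CPM, Tnc at 536 CPM and Mmp13 at 555 CPM, against 3.01, 1.82, 9.54 and 11.5 CPM in other gated fibroblasts of control. Of the 1428 Mmp13 UMIs of MMS members, 1421 lay in members without Slurp1, at 238 CPM in MMS members with Sema3e alone and 4.78 CPM in MMS members with any Slurp1. Acan was at 822 CPM in MMS members with Sema3e alone and 646 CPM in MMS members with any Slurp1, against 3.30 and 1.57 CPM in the same kinds of control member. S100a9, a neutrophil calcium-binding protein gene, had 142 UMIs in MMS members and 0 in control members. It was at 19.1 CPM in MMS members, against 20.8 CPM in MMS others, 33.9 CPM in MMS endothelial cells and 38673 CPM in MMS leukocytes.

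Among the 12 genes named as lower, Myoc, which encodes the secreted glycoprotein myocilin, was at 6.60 CPM in MMS members and 858 CPM in control members (log2 ratio -7.02, -7.46 to -6.62). It was seen in 5.29% of MMS members and 50.5% of control members. The complement gene C7 and the B cell chemokine gene Cxcl13 had 1 UMI each in MMS members and 653 and 359 UMIs in control members. The transporter gene Abca8a was at 8.35 CPM in MMS members and 168 CPM in control members, and the neuronal microtubule regulator gene Stmn4 at 3.10 CPM in MMS members and 93.6 CPM in control members. Lgi2, Inmt and Edn1, which encode a secreted leucine-rich repeat protein, a methyltransferase and the vasoconstrictor endothelin, had log2 ratios of -5.55, -5.44 and -5.25. Pou2f2, a transcription factor gene, and Colec10, a collectin gene, both leading genes of cluster 11, had 4 UMIs each in MMS members and 446 and 269 UMIs in control members. Lypd2, a Ly6 and uPAR family member as Slurp1 is, had 1 UMI in MMS members and 112 in control members. Retnla, a secreted product of macrophages and some other cells, had 1 UMI in MMS members and 403 in control members, and stood at 3548 CPM in control leukocytes.

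**Figure D5:**
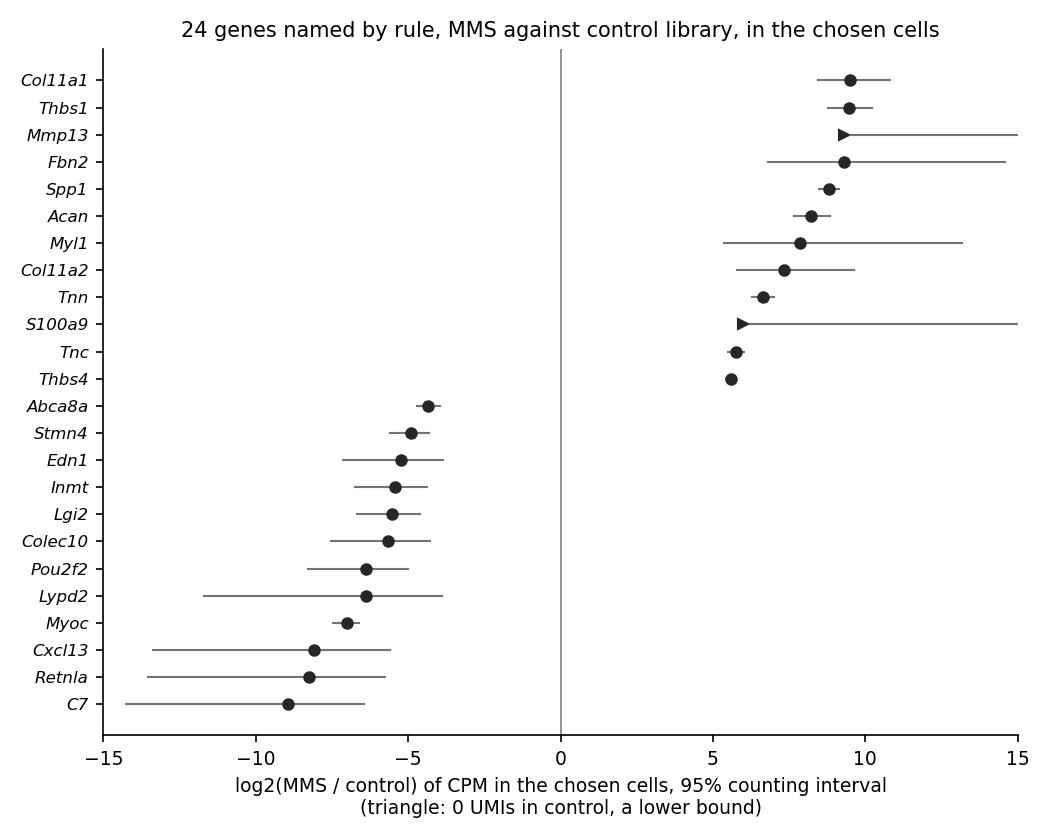
Log2 ratio of CPM in MMS members over control members (horizontal axis) for the 12 genes named as higher and the 12 named as lower (vertical axis), with bars for 95% counting intervals and triangles for lower bounds where control members had 0 UMIs. Thbs1 lies at 9.45 and Myoc at -7.02.

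The 3 marker genes outside the rule differed in direction. Uchl1 and Ccn3 were lower in MMS members, with log2 ratios of -2.27 (-2.54 to -2.02) and -1.82 (-1.92 to -1.71), while Anxa8 was 0.48 higher on that scale (0.42 to 0.55). Among cells of the same depth Anxa8 was at -0.03, and Uchl1 at -2.58. Among members with any Slurp1, Uchl1 was at 74.5 CPM in MMS and 196 CPM in control, and Anxa8 at 950 CPM in MMS and 800 CPM in control.

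Within cluster 11 alone, where 10 MMS cells stand against 204 control cells, several of these differences were smaller or ran the other way. Slurp1, which the rule selected on, was at 1095 CPM in the MMS cells and 655 CPM in the control cells (log2 ratio 0.74, 0.58 to 0.90). Of its 354 UMIs in the 10 MMS cells, 168 lay in 1 cell, a spread between cells that the interval does not cover. Uchl1 was at 148 CPM in the MMS cells and 184 CPM in the control cells (-0.31, -0.76 to 0.11). Ackr2 and Bmp6 were both at 170 CPM in the MMS cells, against 102 and 76.9 CPM in the control cells. Anxa8 was at 1450 CPM in the MMS cells and 790 CPM in the control cells. Pthlh and Foxd1 were higher in the MMS cells, with log2 ratios of 1.56 (1.14 to 1.963) and 1.62 (1.16 to 2.06). Sema3e at 201 CPM in the MMS cells and 474 CPM in the control cells, and Ccn3 at 133 CPM in the MMS cells and 696 CPM in the control cells, stayed lower. Myoc, at 6.18 CPM in the MMS cells and 792 CPM in the control cells, and Tnc, at 198 CPM in the MMS cells and 4.88 CPM in the control cells, kept the direction they had over all members. Mmp13 was at 0 in both, and Acan at 64.9 CPM in the MMS cells and 1.29 CPM in the control cells.

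The families of the 2 selecting genes and their receptors are given next, as genes with at least 10 UMIs over both libraries' members. Over 13454 such genes, 10.4% were at least 2-fold higher and 9.05% at least 2-fold lower in MMS members, with a median log2 ratio of 0.05. Against other gated fibroblasts, 2.47% were at least 2-fold higher in members of both libraries and 2.18% lower.

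Of 12 semaphorin genes measured among 14, 0 were at least 2-fold higher and 2 at least 2-fold lower in MMS members, Sema4a and Sema4d, with a median of -0.36. Against other gated fibroblasts, 3 were at least 2-fold higher in members of both libraries, Sema3e by the rule, and the class 3 genes Sema3c and Sema3d. Sema3c was at 288 CPM in MMS members and 110 CPM in MMS others, and at 344 CPM in control members and 112 CPM in control others. Other cells came closer to the members. Sema3c was at 134 CPM in MMS and 273 CPM in control others with at least 2 UMIs of Dpp4 and Pi16 together. In Prg4-high cells it was at 210 CPM in MMS and 246 CPM in control. Sema3d was at 26.0 CPM in MMS members and 8.34 CPM in MMS others, and at 18.7 CPM in control members and 2.48 CPM in control others. Of the semaphorin receptors, 9 of 11 were measured, 1 higher and 2 lower in MMS members. Plxnd1, which encodes the Sema3e receptor Plexin-D1, was at 6.60 CPM in MMS members and 13.8 CPM in control members, and lower than in other gated fibroblasts, which had 33.7 CPM in MMS and 45.4 CPM in control. Nrp1, a co-receptor of class 3 semaphorins, was at 40.0 CPM in MMS members and 73.9 CPM in control members, against 109 CPM in other MMS and 155 CPM in other control gated fibroblasts.

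Of 15 Ly6 and uPAR genes, 9 were measured, 0 higher and 4 lower in MMS members. The lower genes were Slurp1 itself, which the rule used, Lypd2, Ly6a and Ly6c1. Ly6a, a marker of stem-like and adventitial fibroblasts in mouse, was at 1020 CPM in MMS members and 2453 CPM in control members, and Ly6c1 at 573 CPM in MMS members and 1422 CPM in control members. Few UMIs came from the receptors that Slurp1 is known to act on. Of 10 nicotinic receptor subunit genes, 7 were at 0 UMIs in MMS members and 7 in control members, and Chrna7 had 2 UMIs in MMS members and 0 in control members. Only Chrnb1 was measured, with 8 UMIs in MMS members and 2 in control members. Of 5 CCN genes measured among 6, Ccn2, Ccn4 and Ccn5 were at least 2-fold higher and Ccn3 lower in MMS members. Ccn4 was at 43.2 CPM in MMS members and 1.82 CPM in control members. Of 10 annexin genes measured among 12, only Anxa3 was past 2-fold, at 53.3 CPM in MMS members and 346 CPM in control members, and Anxa8 was the only annexin 2-fold higher in members than in others in both libraries.

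Members carried adventitial markers, more of them in control, while 1 of 9 lining markers was at least 2-fold above other gated fibroblasts in both libraries. In control alone, lining markers stood further above others, with a median log2 ratio of 1.89 against 0.40 for sublining and adventitial markers. In MMS these medians were 0.54 for lining and 0.67 for sublining and adventitial markers. Of 9 sublining and adventitial markers, 8 were at least 2-fold lower and 0 higher in MMS members, with a median of -1.31. Against other gated fibroblasts, 3 were higher in members of both libraries, Dpp4, Sema3c and Ackr3. Dpp4 was at 16.7 CPM in MMS members and 6.67 CPM in MMS others, and at 153 CPM in control members and 48.9 CPM in control others. Pi16 was lower in MMS members than in MMS others, at 175 CPM against 256 CPM. In control it was at 595 CPM in members and 489 CPM in others. Members were deeper than others in both libraries, and the following shares were not taken at equal depth. At least 2 UMIs of Dpp4 and Pi16 together, genes of adventitial fibroblasts, were found in 23.3% of members and 11.2% of others in MMS. In control they were found in 62.0% of members and 27.3% of others. Ackr3 was at 408 CPM in MMS members and 432 CPM in MMS others with at least 2 such UMIs, with overlapping intervals. In control Ackr3 was at 868 CPM in members and 757 CPM in others with at least 2 such UMIs. Of 9 lining markers, 2 were higher and 3 lower in MMS members, and only Cd55, which encodes a complement decay factor of lining cells, was higher in members than in others in both libraries, at 118 CPM in MMS members and 33.5 CPM in MMS others, and at 354 CPM in control members and 81.2 CPM in control others. Most lining markers, but not Cd55, were far below the Prg4-high cells, which the rule had left out by their Prg4. Cd55 was at 118 CPM in MMS members and 198 CPM in MMS Prg4-high cells, but at 354 CPM in control members and 155 CPM in control Prg4-high cells. Has1 was at 77.5 CPM in MMS members and 410 CPM in MMS Prg4-high cells, and in control at 311 CPM in members and 442 CPM in Prg4-high cells. Htra4, Col22a1, Clic5, Tspan15 and Hbegf were at 26.2, 7.94, 4.44, 8.61 and 85.5 CPM in MMS members and at 1046, 777, 485, 244 and 1169 CPM in MMS Prg4-high cells. In the same order they were at 25.9, 6.88, 10.4, 12.05 and 24.8 CPM in control members and at 750, 407, 703, 317 and 1121 CPM in control Prg4-high cells.

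Of 6 tendon markers, 5 were higher and 0 lower in MMS members (median 3.60), and of 7 chondrocyte markers measured among 9, 6 were higher and 0 lower (median 4.0). The tendon transcription factor gene Scx was at 109 CPM in MMS members and 8.61 CPM in control members. Fmod, a collagen-binding proteoglycan, was at 1266 CPM in MMS members and 32.0 CPM in control members. Sox9, the cartilage transcription factor gene, was at 236 CPM in MMS members and 70.6 CPM in control members. The tendon list summed to 2915 CPM in MMS members and 2039 CPM in other MMS gated fibroblasts, so this was a difference between libraries in both kinds of cell. Of 6 perineurial markers measured among 9, 4 were higher and 2 lower in MMS members, and 2 defining markers, Cldn1 and Mpzl2, were at 0 in MMS members. Against other gated fibroblasts, 3 of the 6 were at least 2-fold higher in members of both libraries, Moxd1, Perp and Lypd2, where 2.47% of all measured genes were. Moxd1, a monooxygenase-related gene, was at 53.0 CPM in MMS members and 18.5 CPM in MMS others, and at 3.24 CPM in control members and 0.298 CPM in control others. Perp was at 4.17 CPM in MMS members and 0.354 CPM in MMS others, and at 0.607 CPM in control members and 0.0663 CPM in control others. Lypd2 had 1 UMI in MMS members and 1 in MMS others, and was at 11.3 CPM in control members and 2.88 CPM in control others.

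Markers of other cell types were mostly low, in part by the rule, which limited Pecam1 and Cdh5 of the endothelial list and Ptprc of the leukocyte list. Mural markers summed to 195 CPM in MMS members and 70.9 CPM in control members, almost all of it Cspg4, while Rgs5 was at 3.90 CPM in MMS members and 5.37 CPM in control members. Endothelial markers summed to 42.5 CPM in MMS members and 32.6 CPM in control members, with 0 of 8 at 0 in either library, and most of each sum was Plvap, which the rule did not use, at 38.4 CPM in MMS members and 21.8 CPM in control members. Leukocyte markers summed to 42.7 CPM in MMS members and 68.8 CPM in control members, against 71.1 CPM in other MMS and 95.6 CPM in other control gated fibroblasts, with 1 of 8 at 0 in MMS members and 2 in control members. Of 7 mesothelial markers, 6 were at 0 in MMS members and 5 in control members.

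Of 22 activated fibroblast genes, 17 were at least 2-fold higher and 0 lower in MMS members (median 2.09). Postn, which encodes periostin, was at 1023 CPM in MMS members and 288 CPM in control members. Acta2, the smooth muscle actin of contractile fibroblasts, was at 60.7 CPM in MMS members and 2.53 CPM in control members, less in both than in other gated fibroblasts, which had 145 CPM in MMS and 17.1 CPM in control. Of 5 mural markers measured among 6, 3 were at least 2-fold lower in members than in others in both libraries and 0 higher. Rgs5 was at 3.90 CPM in MMS members and 215 CPM in MMS others, and at 5.37 CPM in control members and 14.6 CPM in control others. The mural list summed per cell went the other way in MMS, with a median of 114 CPM in members and 45.9 CPM in others. At least 2 UMIs of Rgs5 and Notch3 together were found in 1.76% of members and 8.68% of others in MMS, and in 1.45% of members and 4.38% of others in control, and their part in the Acta2 difference was not tested. Of 21 collagen genes, 14 were higher and 1 lower (median 1.32), and of 17 matrix proteases measured among 19, 8 were higher and 1 lower (median 0.61), the lower one Adamts5, an aggrecan-cutting protease, at 108 CPM in MMS members and 465 CPM in control members.

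Of 13 complement genes measured among 14, 1 was higher and 8 lower in MMS members (median -1.29). C3, the central complement component, was at 330 CPM in MMS members and 2325 CPM in control members. Of 10 interferon-response genes measured among 12, 0 were higher and 8 lower (median -2.48), with Ifi27l2a at 39.7 CPM in MMS members and 476 CPM in control members. Of 17 immediate early genes, 0 were higher and 12 lower (median -1.26), and these genes also respond to tissue dissociation, which was not tested. Of 20 cytokine and chemokine genes measured among 21, 3 were higher and 11 lower (median -1.27), and 9 were at least 2-fold lower in members than in others in both libraries while 0 were higher. Cxcl12, a chemokine of sublining fibroblasts, was at 339 CPM in MMS members and 712 CPM in control members, against 1651 CPM in other MMS and 1684 CPM in other control gated fibroblasts.

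Of 18 TGF-beta and BMP genes measured among 21, 2 were higher and 7 lower in MMS members (median -0.40), and 4 were at least 2-fold higher in members than in others in both libraries, Bmp4, Bmp6, Nog and Inhba, while 2 were at least 2-fold lower, Gdf10 among them. Inhba, which encodes an activin subunit, was at 201 CPM in MMS members and 62.8 CPM in MMS others, and at 46.2 CPM in control members and 5.90 CPM in control others. Bmp4 was at 36.7 CPM in MMS members and 16.0 CPM in MMS others, and at 69.5 CPM in control members and 20.3 CPM in control others. Nog, the BMP antagonist noggin, was at 3.63 CPM in MMS members and 0.607 CPM in MMS others, and at 11.1 CPM in control members and 0.729 CPM in control others. Of 19 Wnt and R-spondin genes measured among 20, 4 were higher and 6 lower in MMS members (median -0.32), and the ligand genes Wnt2 and Wnt10b were at least 2-fold higher in members than in others in both libraries, while 5 genes, Rspo1, Rspo3, Sfrp1, Sfrp2 and Dkk2, were at least 2-fold lower. Wnt2 was at 1.88 CPM in MMS members and 0.455 CPM in MMS others, and at 29.4 CPM in control members and 2.85 CPM in control others.

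Of 12 cell cycle genes, 6 were higher and 0 lower in MMS members (median 0.91), and 5 were at least 2-fold higher in members than in others in both libraries. The proliferation marker gene Mki67 was at 36.9 CPM in MMS members and 17.7 CPM in MMS others, and at 17.4 CPM in control members and 2.02 CPM in control others. Cluster 8, led by cell cycle genes, held 11 MMS and 4 control members. At 5000 UMIs per cell, at least 2 UMIs of the list were found in 12.9% of members and 10.2% of others in MMS. In control they were found in 9.87% of members and 7.39% of others. The intervals of members and others overlapped in both libraries. Without thinning the shares were 68.7% of members and 51.4% of others in MMS, and 42.7% of members and 29.0% of others in control. Of 14 housekeeping genes, 0 were past 2-fold either way, with a median of 0.12.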

How the data were processed

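Synovium from both groups was digested and loaded on the 10x Chromium 3' v3.1 system, per the labels' protocols. The deposited values are raw UMI counts per gene and barcode. Per the file headers they came from Cell Ranger 5.0.0. Version 2.0.0 and the mm10 build stand in the submitters' processing notes. The cells, gene lists and tests were chosen with earlier results of these data known. Counts were summed per library over members or other gated fibroblasts and scaled to CPM. Log2 ratios have exact conditional binomial intervals, shares Clopper-Pearson intervals and differences of shares Newcombe intervals, all at 95%. A count of 0 was set to 3. The filter on low values asked for at least 30 UMIs over the members of both libraries and detection in 5% of members where higher. For members against others, the 30 UMIs had to lie in the members of the library where the gene was higher. Other gated fibroblasts did not enter this filter. Named genes were the 12 highest and 12 lowest by the interval bound nearest 0 (MMS against control), and the 15 highest and 10 lowest by the weaker library (members against others), of which 1 is not reported here. Mitochondrial, ribosomal, sex-linked, unnamed and selecting genes were left out. Gated fibroblasts were clustered with scanpy 1.11.5 (2000 variable genes, 30 components, 15 neighbours, resolution 1), with doublets called per library by Scrublet and kept. Sums and intervals were checked on simulated data. Cells are not replicates, so no p-value was computed. UMIs of other cells' free RNA were not removed.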

Additional observations from a re-analysis of the deposited data

How the results depend on the processing

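No paired analysis was possible because each group had 1 library, and leaving out a replicate was not possible for the same reason. Under the alternatives run, list medians stayed within the counting spread of the reported value in 452 cases, moved in 56 and reversed in 1, and named genes in 619, 236 and 4. These totals pool unlike alternatives. Among cells of the same depth, 29 named genes moved and 23 stayed. With Slurp1 alone at 2 or more UMIs, 34 moved and 15 stayed. Within cluster 11 alone, 24 moved, 4 reversed and 6 stayed. The difference in share of gated fibroblasts, 0.889 points, was -3.67 points with every cell thinned to 5000 UMIs. Genes at least 2-fold higher in MMS members numbered 868 of 10805. Within cluster 11 alone they numbered 510 of 8635, 142 of them among the 868, and with Slurp1 alone at 2 or more UMIs 534 of 8866. Genes at least 2-fold lower in MMS members numbered 698 of 10805. Within cluster 11 alone these numbered 1009 of 8635, and with Slurp1 alone 616 of 8866. With no detection minimum and at least 10 UMIs, 1051 of 12224 genes were lower in MMS members. In that setting 244 of 11878 were lower in members than in others. Among cells of the same depth, 121 of 10474 genes were higher in members than in others. At resolution 2.0 the cluster with most members held 16.3% of them. Within cluster 11 alone the MMS over control ratio reversed for Slurp1 (0.74), Ackr2 (0.73) and Bmp6 (1.15). For Slurp1, 168 of the 354 MMS UMIs there lay in 1 of 10 cells. Sfrp2 was also counted as reversed, but had 0 MMS UMIs against 39 in control. Its value of -0.11 is a bound with an interval up to 0.255, so its direction is not settled. The leukocyte list median reversed with Slurp1 alone (0.28). The cause was not tested. The alternatives on cluster 11 alone, members with or without Slurp1, mural cells and cycling cells were chosen after seeing the data. Depth limits ratios that rest on few UMIs, such as that of Serpinb7 in MMS, with 1 UMI in others.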
